A study of Mus musculus with 9 samples.

Results

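C3, C2, C1ra and Saa3 are 4 genes of innate immunity among the 10260 genes listed in 3 deposited tables of counts from AML12 cells, a mouse hepatocyte line. They were taken by symbol, and they were picked because their counts were higher in cells given fatty acids than in untreated cells, so every comparison of them with control is a description without a test. AML12 cells, grown in DMEM with 10% serum, fell into 3 groups of 3 libraries. Control cells received no treatment. PA/OA cells were kept for 24 h with PA at 0.2 mM and OA at 0.4 mM, taken to be palmitic and oleic acids. Ang(1-7) cells received 100 nM of the peptide Ang(1-7) 30 min before PA and then the same fatty acids, so both fatty acid groups share that exposure. No group in the labels received the fatty acid carrier alone or Ang(1-7) alone, and all 9 libraries come from 1 line.

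Complement is a cascade of plasma proteins that tags microbes and damaged cells. C1r, which mouse C1ra encodes, is the protease that activates C1s within the C1 complex; C1s then cleaves C4 and C2, and the C2 fragment supplies the protease of the convertase that cleaves C3, where the pathways of complement meet. Hepatocytes make most of the complement in plasma. Serum amyloid A3 is an acute phase protein of mice, released by many cell types in inflammation, and genes of both kinds are known to respond to interleukin 6, interleukin 1 and tumour necrosis factor through the C/EBP, STAT3 and NF-kappaB factors.

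Windows of 300 bases that end 50 bases after the annotated start are shown for the members whose levels are set side by side in this account and that RefSeq's table covers, C3, C1ra and Saa3. They are from build GRCm38.p6, 5′ to 3′ on the strand of the gene. C3 is at chr17:57228087-57228386 on the minus strand, C1ra at chr6:124512371-124512670 on the plus strand and Saa3 at chr7:46715627-46715926 on the minus strand. Capitals mark matches to motif letters.
C3: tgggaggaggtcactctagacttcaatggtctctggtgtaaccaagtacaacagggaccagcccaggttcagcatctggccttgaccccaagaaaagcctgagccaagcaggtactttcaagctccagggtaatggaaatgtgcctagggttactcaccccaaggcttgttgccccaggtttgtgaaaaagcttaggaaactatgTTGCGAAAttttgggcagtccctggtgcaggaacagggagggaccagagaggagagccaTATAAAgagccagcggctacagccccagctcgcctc
C1ra: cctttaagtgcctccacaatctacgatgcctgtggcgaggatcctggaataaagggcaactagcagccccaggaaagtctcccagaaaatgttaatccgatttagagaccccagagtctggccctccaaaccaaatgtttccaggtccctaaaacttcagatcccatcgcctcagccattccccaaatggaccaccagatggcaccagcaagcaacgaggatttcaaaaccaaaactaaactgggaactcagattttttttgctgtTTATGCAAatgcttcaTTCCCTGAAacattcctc
Saa3: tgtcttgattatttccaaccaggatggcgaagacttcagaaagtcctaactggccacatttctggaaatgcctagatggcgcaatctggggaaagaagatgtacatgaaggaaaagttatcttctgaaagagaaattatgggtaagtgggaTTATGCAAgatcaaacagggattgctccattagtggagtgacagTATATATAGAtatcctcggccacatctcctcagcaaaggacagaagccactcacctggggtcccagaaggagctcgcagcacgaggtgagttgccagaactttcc

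The letters searched, on both strands, were TTGCNNAA for a C/EBP half-site pair, TTCNNNGAA for a STAT palindrome, TATANA for a TATA box and a kappaB consensus. The motifs were chosen after the sequences had been seen. Each of the 3 windows held 1 match to the C/EBP letters, at 45 to 38 bases before the start in C3, 99 to 92 before it in Saa3 and 17 to 24 after it in C1ra. Those letters were in 10.8% of 32851 promoter windows of the same length. The TATA letters matched once in C3, 15 to 20 bases after the annotated start, and 5 times, in overlapping matches between 55 and 46 bases before it, in Saa3. Among those 5, the TATATA matches at 55 to 50 and at 53 to 48 bases were each counted on both strands, where the letters read the same. The TATA letters were in 24.7% of the windows, and both motifs were in 3.3%. C1ra held no TATA letters and held 1 match to the STAT letters, 33 to 41 bases after the start, which 8.3% of windows held. The kappaB consensus, in 8.46% of windows, did not match in any of the 3. Matches of this kind are letters in a window and were not tested as binding sites.

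**Figure D1:**
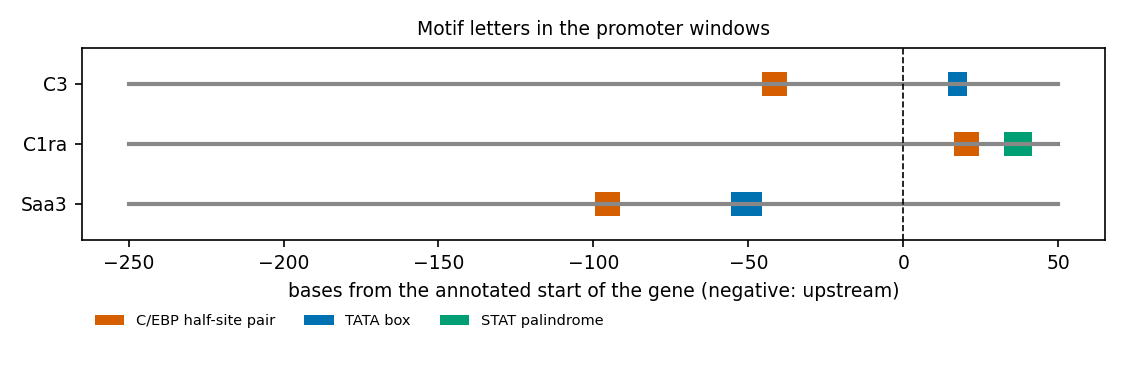
Map of the C3, C1ra and Saa3 promoter windows, with the distance in bases from the annotated start on the horizontal axis and coloured blocks for letter matches. The C/EBP letters lie 45 to 38 bases before the start in C3 and 99 to 92 before it in Saa3, and after the start, at 17 to 24, in C1ra.

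All 4 genes were listed in all 3 tables and passed the filter on low counts in each. Listed counts per library ranged from 24759184 to 28704499. Values per library are raw counts and CPM, counts relative to library size after trimmed mean adjustment over the 9 libraries. Ang(1-7) 2 stood apart: its correlation with the other libraries, over log2 of raw gene counts plus 1, was 0.911 to 0.933. Its counts differed from those of Ang(1-7) 1 and 3 with chi-square values of 254 and 238 per degree of freedom. The other pairs of libraries from 1 group had values of 19.7 to 34.6. Ang(1-7) 2 and 3 also held nervous tissue transcripts, with Gfap at 888 and 378 counts, while Ang(1-7) 1 held 12 counts of Gfap and no PA/OA library held any of it. Some results that rest on these libraries are given with and without 1 of them, and none without both.

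C3, the central component of complement, was the most abundant of the 4 in counts once fatty acids were present. Control libraries held 1182, 1236 and 1250 counts, or 43.7, 46.0 and 47.8 CPM. PA/OA libraries held 5882, 5776 and 5025 counts of the main transcript, or 228, 225 and 195 CPM. Ang(1-7) libraries held 5346, 6348 and 6777, or 212, 238 and 251 CPM. In RNA of whole cultures, a larger share of cells with the transcript and more transcript per cell cannot be told apart. The controls lay within 1.09-fold of each other, and the lowest of the 6 fatty acid libraries was 4.08-fold above the highest control. Mean CPM was 4.71-fold higher in PA/OA and 5.10-fold higher in Ang(1-7) cells than in control. The log2 change was 2.23 ± 0.10 (SE, n = 3 per group) for PA/OA and 2.34 ± 0.12 for Ang(1-7), with a median over all genes of 0.01 and 0.02, and the PA/OA value ranked 4 among the rises of 6213 genes. As a background to such values, 2.82% of genes passed as higher in PA/OA and 0.245% in Ang(1-7) cells against control at an adjusted p under 0.05 (edgeR quasi-likelihood test, Benjamini-Hochberg), and 12.2% and 13.2% had groups that did not overlap with the fatty acid group higher (11.6% and 13.3% with it lower). Nothing about the 4 genes is read from these shares, since the same contrasts chose them.

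Practically all C3 counts belonged to 1 transcript, NM_009778.3. A second, predicted transcript, XM_011246258.1, was listed only in the table of the fatty acid groups. It held 5, 4 and 10 counts in PA/OA and 11, 14 and 14 in Ang(1-7) cells, at most 0.220% of the C3 counts of a library. The 2 groups did not overlap in that transcript, and the authors' deposited table gives it a log2 fold change of 1.02 with a p-value of 0.407.

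Saa3 had the largest ratio to control of the 4 genes. Control libraries held only 26, 4 and 46 counts, with exact Poisson 95% intervals of 17.0 to 38.1, 1.09 to 10.2 and 33.7 to 61.4 that cover counting error only. PA/OA libraries held 525, 547 and 562 counts and Ang(1-7) libraries 571, 391 and 554. On the CPM scale the controls were at 0.961, 0.149 and 1.76, an 11.8-fold spread. PA/OA libraries were at 20.3, 21.3 and 21.8 CPM, within 1.07-fold of each other, and Ang(1-7) libraries at 22.6, 14.7 and 20.5. Every fatty acid library was above every control, and the nearest of them were 8.33-fold apart. Mean CPM was 22.1-fold and 20.2-fold above control. The log2 change was 4.46 ± 0.46 for PA/OA, which ranked 2 among the rises of 6213 genes, and 4.32 ± 0.69 for Ang(1-7). This size rests on the low control libraries: the PA/OA value was 3.95 without control 2 and 5.24 without control 3, and the Ang(1-7) value 3.80 and 5.09.

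C2, the zymogen whose fragment is the protease of the classical and lectin C3 convertase, differed less. Control libraries held 1963, 1429 and 1163 counts, or 72.6, 53.2 and 44.5 CPM. PA/OA libraries held 2354, 2100 and 2203 counts, or 91.1, 81.9 and 85.5 CPM, and Ang(1-7) libraries 2257, 2910 and 2318, or 89.5, 109 and 86.0 CPM. Control 1 was close to the fatty acid libraries, with a gap of 1.13-fold to the lowest of them, and the controls spread over 1.63-fold. The log2 change was 0.60 ± 0.15 for PA/OA and 0.73 ± 0.20 for Ang(1-7), and the PA/OA value ranked 462 of 6213. C2 shares 58.0% of its 50-base stretches with Gm20547, an annotated gene that overlaps it on the same strand, and it also overlaps Zbtb12 on the opposite strand. Whether counting used strand is not given in the sources used here, so reads of these genes cannot be told apart.

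C1ra stood at a similar ratio. Control libraries held 1078, 837 and 919 counts, or 39.9, 31.1 and 35.2 CPM. PA/OA libraries held 1578, 1357 and 1348 counts, or 61.1, 52.9 and 52.3 CPM, and Ang(1-7) libraries 1308, 1762 and 1795, or 51.8, 66.1 and 66.6 CPM. The nearest control and fatty acid library were 1.30-fold apart. The log2 change was 0.64 ± 0.14 for PA/OA, ranked 404 of 6213, and 0.78 ± 0.17 for Ang(1-7). C1ra shares 48.0% of its 50-base stretches with C1rb, its near-identical paralog, so the split of counts between these 2 genes is uncertain. C1rb held 163, 3 and 175 counts in Ang(1-7) 1 to 3. Saa3, by contrast, shares 1.78% with Saa1 and none with Saa2, and C2 shares none with Cfb.

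**Figure D2:**
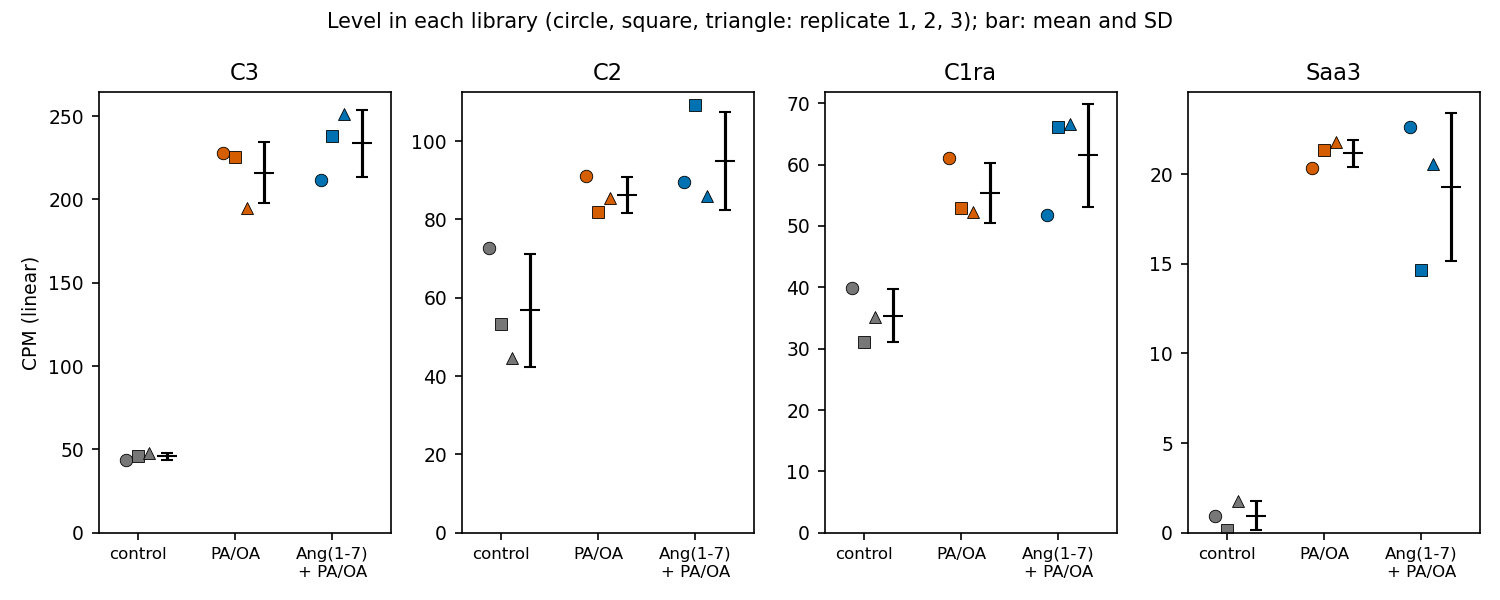
CPM on a linear axis for C3, C2, C1ra and Saa3 in each of the 9 libraries, by group, with a bar for the mean and SD of 3 libraries beside each group. All fatty acid libraries are above all controls for each gene, by 4.08-fold at the nearest for C3 and 1.13-fold for C2, and both fatty acid groups overlap.

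Per transcript length, the order of the genes differed between the groups. These are mean CPM per kb of transcript (SD, n = 3), with lengths of 5136 bases for C3, 2641 for C2, 2981 for C1ra and 555 for Saa3 from the GENCODE transcripts, and C1ra and C2 carry the uncertainty given above. In control cells C2 was highest at 21.5 ± 5.44, followed by C1ra at 11.9 ± 1.46, C3 at 8.93 ± 0.403 and Saa3 at 1.72 ± 1.45, and no library of 1 gene reached the next. In PA/OA cells C3 was highest at 42.1 ± 3.54, then Saa3 at 38.1 ± 1.38, C2 at 32.6 ± 1.75 and C1ra at 18.6 ± 1.64. C3 and Saa3 overlapped there, while C2 and C1ra were each below. In Ang(1-7) cells C3 was at 45.5 ± 3.91, C2 at 35.9 ± 4.74, Saa3 at 34.7 ± 7.44 and C1ra at 20.6 ± 2.81, and only C1ra did not overlap with its neighbour in the order. Of the summed CPM of the 3 complement genes, C3 made up 28.0% to 37.5% in control libraries and 57.6% to 62.6% in fatty acid libraries, while the sum was 128 to 156 CPM and 333 to 413 CPM.

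**Figure D3:**
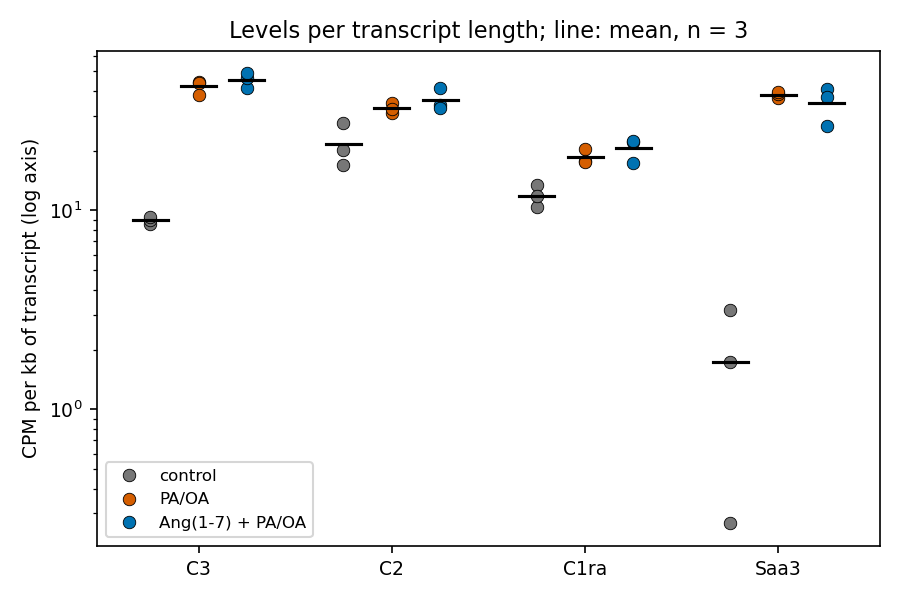
CPM per kb of transcript on a log axis for the 4 genes in each library, grouped by treatment, with a line at the mean of 3 libraries. C2 is highest in control cells, at 21.5, and C3 highest in PA/OA cells, at 42.1, while the control libraries of Saa3 are widely spread.

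The comparison of Ang(1-7) with PA/OA cells asks whether the peptide altered the response to fatty acids. It did not itself choose the genes and was tested over 9261 genes. It shares its libraries with the contrasts with control that did, so it is not independent of the choice. None of the 4 genes passed, and the groups overlapped for each. Over all genes, 4.99% had groups that did not overlap with Ang(1-7) higher and 6.01% with it lower. At the threshold 0% passed (0 genes by edgeR, 5 by DESeq2), and 2.55%, or 236 genes, had an unadjusted p under 0.05. For C3, CPM in that table was 235 ± 20.7 in Ang(1-7) and 216 ± 17.5 in PA/OA cells (SD, n = 3), a log2 change of 0.12 ± 0.12 with an adjusted p of 0.965 (edgeR quasi-likelihood test, Benjamini-Hochberg). Its 95% interval ran from 0.894-fold to 1.32-fold. For C2 the means were 94.99 ± 12.3 and 85.9 ± 5.05 CPM, a log2 change of 0.14 ± 0.14, with an interval of 0.879-fold to 1.38-fold and an edgeR adjusted p of 0.965. For C1ra they were 61.6 ± 8.47 and 55.3 ± 5.04 CPM, a log2 change of 0.15 ± 0.16, with an interval of 0.860-fold to 1.43-fold and an edgeR adjusted p of 0.965. All 3 complement genes had a positive value, and all 3 intervals included no change. With any 1 library left out, the log2 change was 0.051 to 0.19 for C3, 0.036 to 0.20 for C2 and 0.089 to 0.26 for C1ra.

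Saa3 had a mean of 19.3 ± 4.16 CPM in Ang(1-7) and 21.1 ± 0.749 CPM in PA/OA cells. The log2 change was −0.13 ± 0.23, with an interval of 0.642-fold to 1.30-fold and an edgeR adjusted p of 0.970. Ang(1-7) 2, at 391 counts, was the lowest of the 6 libraries, and without it the log2 change was 0.040 with an adjusted p of 1.00. The direction of the Saa3 value therefore rested on the library that stood apart. An adjusted p above the threshold does not show that Ang(1-7) left the 4 genes as they were: the intervals set the sizes that 3 libraries a group leave possible.

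The other complement genes come from lists of components and of regulators and receptors made from textbook knowledge, with earlier results of these data known. Of 30 components, 6 were in the table of PA/OA against control, and 3 of the 6 were called higher. Those 3 are C3, C2 and C1ra, so that count follows from the choice of genes. None of the other 3 passed by edgeR or DESeq2, and 1 of them, C1rb, had an unadjusted p under 0.05, as did 19.4% of all genes. C1rb, the C1r paralog, held 36, 79 and 88 counts in control and 137, 91 and 170 in PA/OA libraries, with groups that did not overlap, a log2 change of 1.01 ± 0.48 and an edgeR adjusted p of 0.248. Cfp, which encodes properdin, the stabiliser of the alternative pathway convertase, had a log2 change of 0.19 ± 0.33 with an edgeR adjusted p of 0.827. C4a, a mouse paralog of the C4 gene, had −0.08 ± 0.39 with an edgeR adjusted p of 0.946. C1qc, the C5 gene Hc, C6, C7, C9 and the collectins are not analysed here.

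Of 22 regulators and receptors, 4 were in that table, and none passed by edgeR or DESeq2 or had an unadjusted p under 0.05. C1qbp, which encodes a protein that binds the globular heads of C1q, had a log2 change of 0.17 ± 0.11 with an edgeR adjusted p of 0.442. C3ar1, the receptor for the C3a fragment, had 0.30 ± 0.40 with an edgeR adjusted p of 0.764. Cr1l, a membrane regulator of C3 and C4 activation in mice, had −0.32 ± 0.43 with an edgeR adjusted p of 0.764. The median of the 4 genes was 0.11, against 0.01 over all genes. In Ang(1-7) against control, neither the 3 other components nor the 4 regulators had a called gene by edgeR or by DESeq2, and 1 of the 7, C1qbp, had an unadjusted p under 0.05 (log2 change 0.34 ± 0.14, edgeR adjusted p of 0.324), while 14.9% of all genes did.

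Saa3 was 1 of 10 acute phase genes in the table of PA/OA against control, out of 30 in the list. Of the other 9, 2 passed as higher and none as lower, at a background of 2.82% of genes higher and 2.24% lower, and their median log2 change was 0.37. The 2 were Hpx, the plasma carrier of heme, and Lcn2, the lipocalin that binds bacterial siderophores. Hpx held 2136, 2256 and 1927 counts in control, 3707, 3740 and 3525 in PA/OA and 3432, 3741 and 3620 in Ang(1-7) libraries. The fatty acid groups were apart from control and overlapped with each other. Its log2 change was 0.85 ± 0.10 for PA/OA, with an edgeR adjusted p of 1.24e-05. For Ang(1-7) it was 0.78 ± 0.11 with an edgeR adjusted p of 0.0429, a call that was lost when any library other than Ang(1-7) 2 was left out, with adjusted p of 0.0834 to 0.349.

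Lcn2, like Saa3, was near the floor in control cells, with 6, 0 and 1 counts. PA/OA libraries held 273, 106 and 82 counts and Ang(1-7) libraries 89, 279 and 197, so both fatty acid groups were above control and overlapped with each other. The fitted log2 change, which at such low control counts depends on the prior count, was 6.02 ± 0.82 for PA/OA with an edgeR adjusted p of 1.06e-04. For Ang(1-7) it was 6.26 ± 0.97 with an edgeR adjusted p of 0.0514. That value was 0.0458 without Ang(1-7) 1 and 2.57e-04 without Ang(1-7) 2. DESeq2 gave no adjusted p for Lcn2 in either comparison.

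Further acute phase genes had positive values short of the edgeR threshold in PA/OA against control. Hp, which encodes haptoglobin, the carrier of free haemoglobin, held 112, 69 and 147 counts in control and 273, 238 and 222 in PA/OA libraries, without overlap, with a log2 change of 1.20 ± 0.35 and an edgeR adjusted p of 0.0513. Cp, the ferroxidase ceruloplasmin, had 1.06 ± 0.35 with an edgeR adjusted p of 0.0875. By DESeq2, Hp and Cp passed, with adjusted p of 0.0134 and 0.0365. Cd14, the co-receptor for lipopolysaccharide, had 0.22 ± 0.07 with an edgeR adjusted p of 0.0912. Among plasma proteins that fall in the acute phase response, 4 of 8 were tested and the 2 called went opposite ways. Ttr, the carrier transthyretin, fell by 1.79 on the log2 scale (SE 0.34, edgeR adjusted p of 0.00357), and Trf, which encodes transferrin, rose by 0.41 (SE 0.08, edgeR adjusted p of 0.00392).

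**Figure D4:**
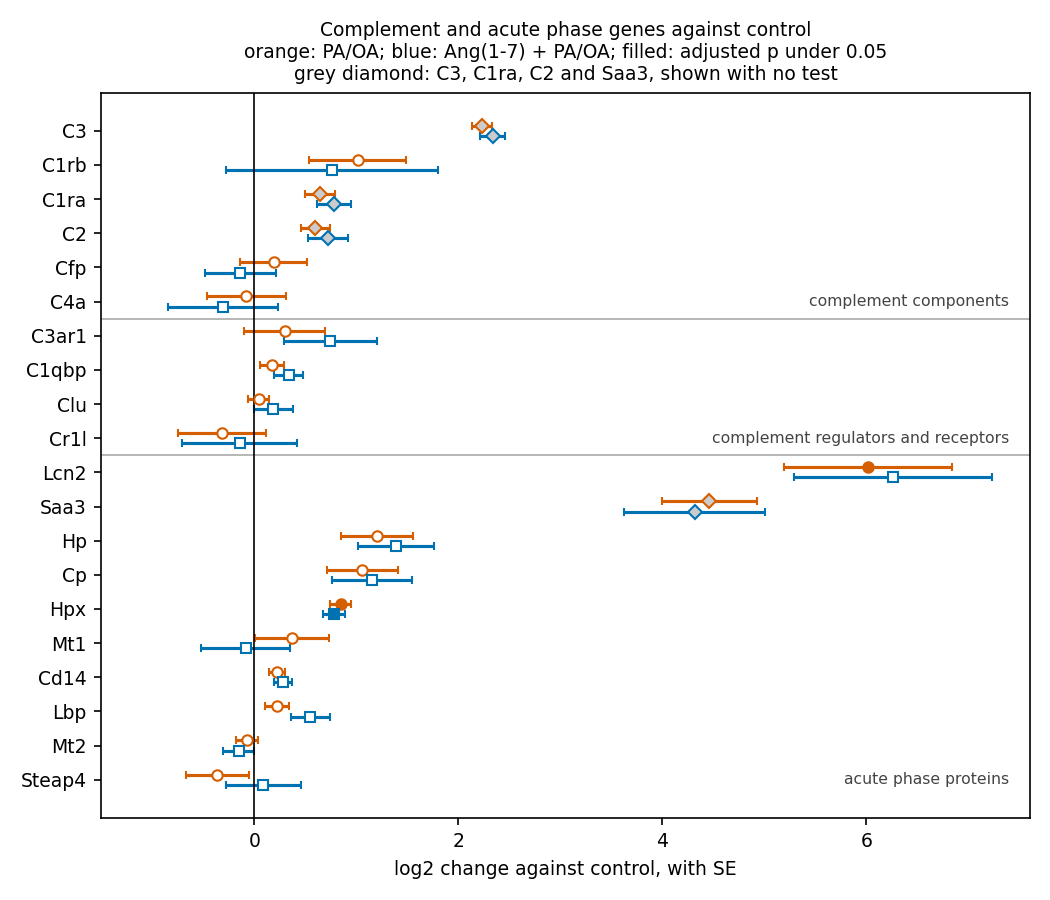
The log2 change against control with its SE (horizontal axis) for tested complement components, complement regulators and receptors, and acute phase genes, with PA/OA in orange and Ang(1-7) with PA/OA in blue, from fits of 3 libraries a group. Grey diamonds are the 4 chosen genes, filled circles and squares are other genes with an adjusted p under 0.05. Lcn2, at 6.02, and Saa3, at 4.46, lie far to the right, and the 4 regulators and receptors lie between −0.32 and 0.30 in PA/OA cells.

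Of 32 genes of acute phase signalling, 18 were tested in PA/OA against control, and by edgeR 4 passed as higher and none as lower. Positive values were found in 14 of the 18, and the median log2 change of the 18 was 0.29. Over all genes 2.82% passed as higher and 2.24% as lower. Cebpd, a C/EBP factor that is itself induced in the acute phase, held 85, 69 and 73 counts in control and 309, 207 and 152 in PA/OA libraries, a log2 change of 1.60 ± 0.38 with an edgeR adjusted p of 0.0168. Ang(1-7) libraries held 164, 60 and 123, which overlapped with both groups. Il6st, the gp130 signalling chain of the interleukin 6 receptor, rose by 0.31 ± 0.07 (edgeR adjusted p of 0.0172). Ifngr1, a chain of the interferon gamma receptor, rose by 0.32 ± 0.08 (edgeR adjusted p of 0.0200). Tnfrsf1b, the second receptor for tumour necrosis factor, rose by 0.65 ± 0.17 (edgeR adjusted p of 0.0325). These calls depended on single libraries: none of the 4 was left without control 1, and 1 was left without control 2, PA/OA 2 or PA/OA 3. None of the 4 passed in a fit of all 9 libraries, where 33 genes did. Tnfrsf1b was called in none of the 6 fits that left out a library, with adjusted p of 0.0610 to 0.119.

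Jak2, a kinase that acts downstream of cytokine receptors, was short of the threshold with a log2 change of 0.67 ± 0.20 and an edgeR adjusted p of 0.0533. Ikbkg, a subunit of the kinase complex that activates NF-kappaB, had 0.57 ± 0.17 and an edgeR adjusted p of 0.0566. Nfkbia, the inhibitor of NF-kappaB that is also a target of it, had 0.27 ± 0.08 and an edgeR adjusted p of 0.0638. All 3 passed by DESeq2, with adjusted p of 0.0215 to 0.0265. In Ang(1-7) against control none of the 18 passed by edgeR, and 6 had an unadjusted p under 0.05, as did 14.9% of all genes. DESeq2 called 2 of them and 233 genes in all, and edgeR without Ang(1-7) 2 called 5 of them and 624 genes in all.

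In Ang(1-7) against PA/OA no gene of these lists passed by edgeR, with 12 complement components, 4 regulators and receptors, 11 acute phase genes and 25 signalling genes tested. None of them had an unadjusted p under 0.05. Their medians were 0.13, 0.19, 0.05 and 0.12 on the log2 scale, against −0.01 over all genes. The largest distance from 0 among the 3 of lowest p in each list was in C1s1, the protease that C1r activates, with 8, 25 and 24 counts in PA/OA and 25, 44 and 57 in Ang(1-7) libraries. Its log2 change was 1.10 ± 0.79 with an edgeR adjusted p of 0.965. Its lowest pretreated library equalled the highest other library in counts. Cebpd had −0.96 ± 0.44 and Socs3, the feedback inhibitor of interleukin 6 signalling, had −0.87 ± 0.59 with an edgeR adjusted p of 0.965. With any 1 library left out, Cebpd ranged from −1.34 to −0.64 and Socs3 from −1.45 to −0.41.

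Within the table of both fatty acid groups, some complement genes had counts only in pretreated libraries, beside the nervous tissue transcripts; in control cells these genes are not analysed here. C1qa held 0, 29 and 21 counts in Ang(1-7) 1 to 3 and C1qb 0, 61 and 29, each at 0 in all PA/OA libraries. Both had counts in 2 libraries only and were left out of the edgeR test by its filter. Gfap, the glial filament gene, held 12, 888 and 378 counts in the same order. The summed CPM of 7 listed nervous system markers of 12 was 126 to 192 in pretreated libraries and 131 to 138 in PA/OA libraries. Most of that sum was 1 marker, Mbp, at 118 to 134 CPM in pretreated and 130 to 134 CPM in PA/OA libraries. Of the 7 markers, 2 had counts in each PA/OA library, and 3, 7 and 7 in Ang(1-7) 1 to 3. The part of the nervous tissue transcripts in the complement counts was not tested.

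**Figure D5:**
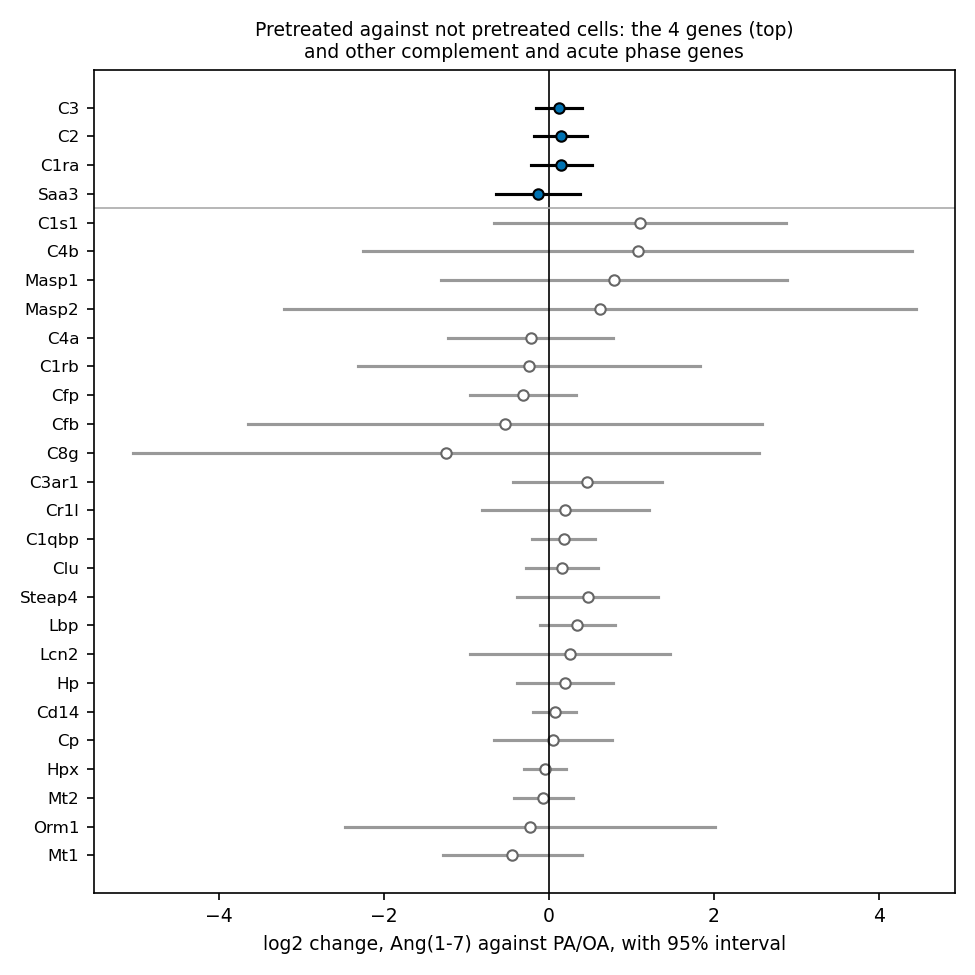
The log2 change of Ang(1-7) against PA/OA with its 95% interval (horizontal axis), from 3 libraries a group, for the 4 genes at the top and for other tested complement and acute phase genes below. Every interval spans 0, and those of C3, at 0.12, and Saa3, at −0.13, are narrow beside those of most other complement components.

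Markers of other cell types moved in part with the fatty acid groups. Of 12 macrophage markers, 3 were listed in PA/OA against control (Cd68, Lyz2 and Cd14), with a summed level of 587 to 626 CPM in control and 674 to 816 CPM in PA/OA libraries, nearly all of it Cd14. None of the 3 passed. Of 7 neutrophil markers only S100a8 was listed, at 4.75 to 6.75 and 10.7 to 17.9 CPM, and it rose with a log2 change of 1.28 ± 0.29 and an edgeR adjusted p of 0.0136. Of 9 stellate cell and fibroblast markers only Des was listed, at 2.93 to 5.71 and 5.42 to 8.96 CPM, and of 7 endothelial markers none. The 4 listed hepatocyte markers of 12, Alb, Apob, Hnf4a and Ttr, summed to 122 to 126 CPM in control and 189 to 221 CPM in PA/OA libraries, most of it Apob. The marker list gave transferrin by the symbol Tf and not Trf, so it is missing from that sum. Trf was at 444 to 539 CPM in control and 593 to 702 CPM in PA/OA libraries. Apob rose by 1.00 ± 0.09 on the log2 scale (edgeR adjusted p of 5.91e-07), and Ttr fell as given above, while Alb had −0.71 ± 0.36 (edgeR adjusted p of 0.299) and Hnf4a −0.57 ± 0.33 (edgeR adjusted p of 0.380), for a list median of −0.64. Of 5 cholangiocyte markers 4 were listed, with a sum of 1993 to 2135 CPM in control and 1568 to 1711 CPM in PA/OA libraries. Nearly all of the sum was Krt19 and Krt7, the 2 that passed as lower. Krt19 had −0.56 ± 0.07 (edgeR adjusted p of 4.37e-05) and Krt7 −0.27 ± 0.06 (edgeR adjusted p of 0.0139). Sox9 and Spp1 went the other way, short of the threshold. They had 0.56 ± 0.25 (edgeR adjusted p of 0.218) and 0.96 ± 0.42 (edgeR adjusted p of 0.210). The list median was 0.15. The part of these markers in the levels of C3, C2, C1ra and Saa3 was not tested.

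The genes most like each of the 4 were found by Pearson's r of log2 CPM over the 9 libraries, among 5794 genes in all 3 tables. Because controls stand apart from the fatty acid libraries, r mainly ranks genes by that shared step, and it is a description over libraries that share their groups and depth. For C3 they were Cxcl3, a neutrophil chemokine (r = 0.994), Slfn2 (0.991), Rdh10, a retinol dehydrogenase (0.990), Aldh1a1, which makes retinoic acid (0.986), and Apob, the structural protein of secreted lipoprotein (0.985). Cxcl3 was also closest in size, with log2 changes of 2.11 ± 0.14 in PA/OA and 2.14 ± 0.15 in Ang(1-7) cells against control. Slfn2 had 0.85 ± 0.07 and 0.86 ± 0.09 in those comparisons.

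For C1ra the most alike were Tnfrsf1b (0.985), Lcn2 (0.981) and Fads3 (0.964), and for Saa3 they were Rhoq (0.972), Hp (0.972) and Setd7 (0.967). Lcn2, Tnfrsf1b and Hp are thus acute phase or signalling genes of the lists above as well. For C2 they were Pde6d (0.979), Ppic, a cyclophilin (0.977), and Sc5d, an enzyme of late cholesterol synthesis (0.960). Pde6d had log2 changes of 1.25 ± 0.58 and 1.75 ± 0.66, with a wide error, and Ppic only 0.22 ± 0.09 and 0.24 ± 0.12. Without Ang(1-7) 2 all 14 values of r moved by less than 0.05, but the order of genes changed. For C3, Slfn2 went from rank 2 to 7 and Apob from 5 to 11. Fads3 went from 3 to 7 for C1ra, and Rhoq from 1 to 3 and Setd7 from 3 to 6 for Saa3. Cxcl3, Tnfrsf1b and Pde6d kept rank 1.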

How the data were processed

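RNA from 9 samples was sequenced. The authors deposited 3 tables, 1 per pair of groups, of whole-number read counts per RefSeq transcript with a log2 fold change and a p-value. The submitters' processing notes name bcl2fastq, HISAT2 2.2.5 and HTSeq 0.11.2, and a human build although the transcripts are from mouse. Counting options and strand were not given in the sources used here. Tables listing only transcripts above a level leave out low genes, and the control tables reach less far down (lowest mean count of a transcript 56.8 and 59.5, against 5.17 for both fatty acid groups).

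Counts were summed per gene symbol and tested within each table with edgeR 4.0.16 (R 4.3.3, trimmed mean scaling, filterByExpr, quasi-likelihood F test), with Benjamini-Hochberg adjustment over all genes tested and a threshold of 0.05. DESeq2 1.42.0 was an alternative. The tests were checked on simulated counts. Log2 CPM used a prior count of 2. The labels do not say whether samples of 1 group were separate cultures, so p-values measure only how far these samples differ, and that spread may be technical. Some results of the lists are not reported here. The members and lists were chosen with earlier results of these data known. Named genes were the 4 members, called list genes, otherwise up to 3 per list of lowest p, and the genes most alike, with a mean of at least 50 counts.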

Additional observations from a re-analysis of the deposited data

How the results depend on the processing

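Over the results behind the comparisons, 285 alternatives left a count within 1.5 times or a log2 change in its direction, 38 moved a count by over 1.5 times and 1 changed a sign. The 4 genes against control carry no test, so their side of the threshold is not counted there. Over 12 alternatives, their log2 change in PA/OA against control was 2.19 to 2.30 for C3 and 3.95 to 5.24 for Saa3. It was 0.45 to 0.82 for C2 and 0.56 to 0.74 for C1ra. In Ang(1-7) against control it was 2.28 to 2.39 for C3 and 3.80 to 5.09 for Saa3. For C2 it was 0.58 to 0.94 there, and for C1ra 0.69 to 0.88. The 1 changed sign was that of Saa3 in Ang(1-7) against PA/OA (0.040 without Ang(1-7) 2, and −0.26 to 0.040 with any library left out). Among other named genes with values near 0, C4a (0.0011 with the replicate block, −0.37 to 0.20 with a library left out) and Cr1l (−0.61 to 0.31) turned in PA/OA against control, without control 2 and control 3. Clu turned without Ang(1-7) 2 (−0.085 to 0.29 against PA/OA, −0.070 to 0.30 against control), as did C4a (−0.60 to 0.058 against control), and Cfp turned without control 3 (−0.33 to 0.19 in Ang(1-7) against control). None of the 4 genes was called in Ang(1-7) against PA/OA under any of 12 alternatives.

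Called genes in PA/OA against control numbered 314, 537 with DESeq2, 33 in a fit of all 9 samples and 99 to 397 with a library left out. Complement components numbered 3, 1 in the fit of all samples and 1 to 3 with a library left out, and signalling genes 4, 7 (DESeq2), 0 (all samples) and 0 to 4. In both comparisons with control, the complement components called under any setting were all among C3, C2 and C1ra. Their numbers therefore follow from the choice of genes. Over all genes, those called in Ang(1-7) against PA/OA numbered 0, 5 (DESeq2) and 0 to 18 with a library left out. In Ang(1-7) against control, called genes over all numbered 15, 233 (DESeq2), 100 (all samples) and 4 to 624, the last without Ang(1-7) 2. There, complement components numbered 1, 3 (DESeq2), 2 (all samples) and 1 to 3. Acute phase genes numbered 1, 3, 3 and 0 to 6, and signalling genes 0, 2, 2 and 0 to 5. The chosen gene Saa3 was among the acute phase genes called by DESeq2, with all samples and without Ang(1-7) 2. The cause of these differences in number was not tested.

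Same-numbered libraries did not visibly deviate together (r of −0.0989 to 0.0470, against −0.0605 to 0.113 between different numbers). With 3 libraries a group, 1 of which stood apart, this cannot exclude a pairing. With the replicate number as a block, 303, 0 and 10 genes were called and acute phase genes in Ang(1-7) against control went from 1 to 0. The Saa3 counts of 4 to 46 in controls limit the precision of its ratio.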
